A study of Arabidopsis thaliana with 11 samples.

Results

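The genes described here are 146 of the 28718 Arabidopsis loci in the deposited normalised table, 0.508% of them, that were raised in guard cells after stepwise salt and whose mean after a single late salt round lay close to that of unsalted plants. They were chosen on group means of log2 values in that table. A locus was kept when 3x salt minus no salt was at least 1.2, when 1x salt minus no salt lay within 0.4 of 0, and when its largest group mean was at least 8. Because these values chose the genes, all 3 differences are given as descriptions. Test calls among the 146 loci are given beside the share of all genes, and nothing is read from them. Of the 146 loci, 72 have a gene symbol in the RefSeq gene table, and 73 could be placed in 8 role groups by symbol or synonym. The other 73 are described by locus and value only.

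The study grew Columbia-0 Arabidopsis in soil and collected guard-cell-enriched samples in the light. The 3x salt group (4 samples) had its pots soaked in 75 mM NaCl on days 1 and 2, in 150 mM on days 7 and 8 and in 200 mM on days 13 and 14. The 1x salt group (3 samples) received 200 mM alone on days 13 and 14, and the no-salt group (4 samples) received tap water. All plants were harvested on day 15, 4 h after the lights came on. Each soak lasted 2 h, and plants were 4 to 5 weeks old at the start. Whether the samples of 1 group were taken from different plants is not stated in the labels, so every p-value below reflects the spread between samples, and part of that spread may be technical. Sample numbers are those of the labels, and 1 sample is 1 array.

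Guard cells flank the stomatal pore and close it when abscisic acid (ABA), the hormone of water shortage, triggers loss of anions and potassium. Salt in the soil acts both by withholding water and by loading the shoot with sodium and chloride. Plant cells are known to answer with ABA-regulated protective proteins, chaperones that hold other proteins in their folded state, enzymes that conjugate and export toxic compounds, and transporters that move ions and metabolites into the vacuole or out of the cell.

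Each array held 43803 spots besides controls, and 66.2% to 80.3% of those exceeded background clearly. The lowest share was on the 1x salt array of sample 1 and the highest on that of sample 3, with 66.6% to 71.8% on the others. Outlier spots numbered 442 on the 1x salt array of sample 3 and 9 to 38 on the others. Of 18 guard cell markers all were detected, and their mean level relative to each array's 75th percentile was -0.62 to -0.21 on 3x salt arrays, -0.12 to 0.37 on 1x salt arrays and -0.37 to 0.04 on no-salt arrays. By limma at an adjusted p of 0.05, 2 of the 18 rose and 7 fell after 3x salt against no salt. The shares of all genes tested were 27.9% and 23.6%. After 3x salt against 1x salt 2 rose and 9 fell, beside 19.8% and 19% of all genes. After 1x salt against no salt 4 rose and none fell, beside 9.24% and 7.7% of all genes. The same shares stand beside the other marker counts below. Mesophyll markers were also detected, all 10 of them, with array means of 4.61 to 4.75 after 3x salt, 5.49 to 6.10 after 1x salt and 5.56 to 5.83 without salt, and 9 of the 10 fell after 3x salt against no salt and against 1x salt by limma. Of 15 vascular markers, 2 rose and 6 fell after 3x salt against no salt, 12 fell after 3x salt against 1x salt and 10 rose after 1x salt against no salt, and array means were 0.48 to 0.93 after 3x salt, 1.49 to 2.00 after 1x salt and 0.66 to 0.94 without salt. Of 10 tested pavement cell and trichome markers, 1 rose and 6 fell after 3x salt, with array means of -1.43 to -1.26 after 3x salt, -0.89 to -0.66 after 1x salt and -0.85 to -0.71 without salt, and GL1 was not well above background. None of the 146 loci is in a marker list, and the part of these shifts in the values below was not tested. In such bulk samples, fewer cells of a type and less RNA per cell cannot be told apart.

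Over the 146 loci, 3x salt minus no salt ran from 1.2 to 4.32 on the log2 scale, with a median of 1.42, beside a median of 0.02 over all loci of the table. The median locus lay 1.37, 1.39, 1.48 and 1.55 above the no-salt mean on the 4 arrays after 3x salt. On the 1x salt arrays it lay -0.33, 0.39 and 0.37 from that mean, and on the no-salt arrays -0.07, 0.01, -0.01 and 0.04. Array 1 after 1x salt thus stood on the other side of the no-salt mean from arrays 2 and 3. The 3x salt arrays lay above every 1x and no-salt array at 142 of the 146 loci, beside 12.7% of all loci. Above the no-salt arrays alone they stood at 142 too, beside 20% of all loci. Each count follows in large part from how the loci were chosen.

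**Figure D1:**
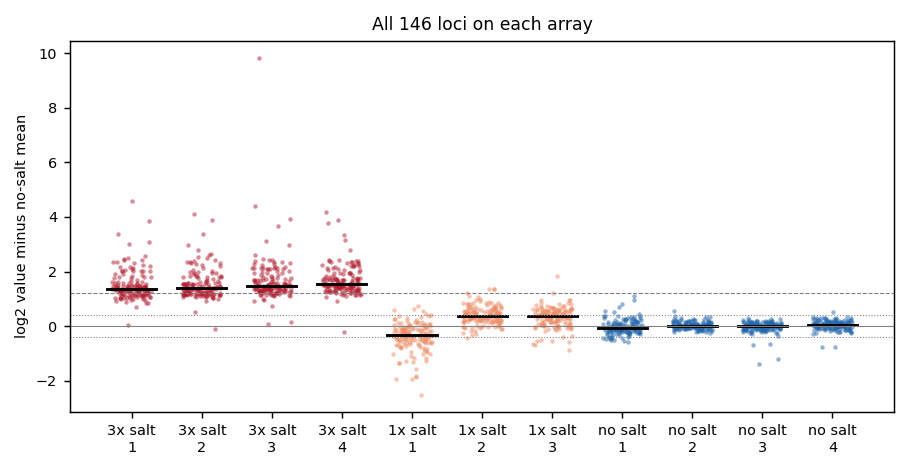
Each point is 1 of the 146 loci, plotted by array (3x salt, 1x salt, no salt, numbered as in the labels) against its log2 value minus the no-salt mean; black bars are medians, dotted lines mark 0.4 and -0.4, the dashed line 1.2. The medians are 1.37 to 1.55 on 3x salt arrays, -0.33, 0.39 and 0.37 on 1x salt arrays and near 0 on no-salt arrays, and the point near 10 is FRS3 on the 3rd 3x salt array.

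The closeness to no salt after 1x salt held for group means and for few loci on every array. Only 30 of the 146 (20.5%) had all 3 of their 1x salt arrays within 0.4 of the no-salt mean, against 69.7% of the 12270 loci that passed the 1x and level thresholds whatever their 3x value, and 51.0% of all loci. At 100 loci (68.5%) the first 1x salt array lay below the no-salt mean and arrays 2 and 3 above it. That pattern was found at 2090 of the 12270 loci, at 12.9% of all loci, and at 25.7% of the 323 loci raised by at least 1.2 after 3x salt that were also at least 0.4 higher after 1x salt. The opposite pattern, first array above and the others below, was found at 3 of the 146. The median SD of the 1x salt arrays was 0.45 over the 146 loci, against 0.18 for 3x salt and 0.16 for no salt.

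The first 1x salt array was the lowest of the 3 at 83.6% of the 146 loci and at 80.5% of the 323 loci raised after both regimes, beside 39.0% of all loci. It was the lowest of all 11 arrays at 92 of the 146 (63.0%) and at 59 of the 323 (18.3%), beside 17.2% of all loci. In the 323 its median was 0.54 above the no-salt mean, against 1.46 and 1.39 for arrays 2 and 3. Where the mean of 1x salt was taken over arrays 2 and 3 alone, 70 of the 146 loci stood at least 0.4 above no salt, 75 stayed within 0.4 and 1 was at least 0.4 below. Marker levels moved on these arrays too. Relative to the no-salt mean, the mesophyll marker mean was 0.46 higher on the first 1x salt array and lay near 0 and at -0.15 on arrays 2 and 3, while the guard cell marker mean lay at 0.14, -0.03 and 0.46. Vascular markers were 0.62, 0.81 and 1.13 higher on the same 3 arrays. Their part in the split of the 1x salt arrays was not tested.

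**Figure D2:**
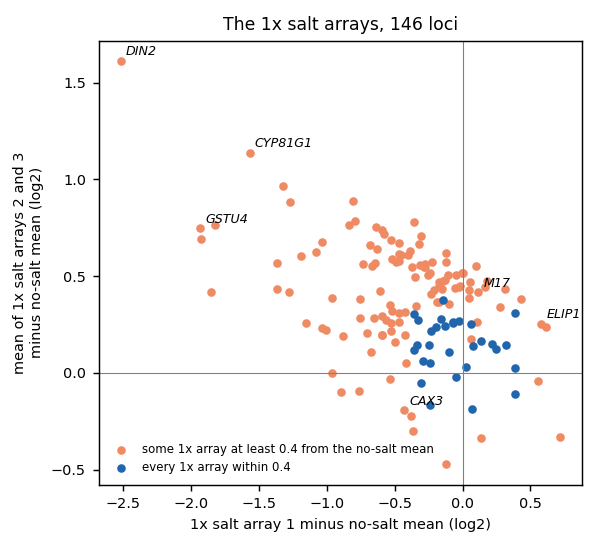
Each point is 1 of the 146 loci, with its first 1x salt array (horizontal) and the mean of its 1x salt arrays 2 and 3 (vertical), both minus the no-salt mean in log2. Most points lie left of and above 0; the 30 blue loci have every 1x salt array within 0.4, and DIN2, CYP81G1 and GSTU4 lie farthest apart between the arrays.

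In limma's fit to the scanner files over all genes, 138 of the 140 loci with a probe were called higher after 3x salt than without salt at an adjusted p of 0.05, where 27.9% of all 23442 genes tested were. FRS3 was the 1 called lower, beside 23.6% of all genes. Against 1x salt, 136 of 140 were called higher after 3x salt, beside 19.8% of all genes. After 1x salt 4 were called higher and 1 lower than without salt, beside 9.24% and 7.7% of all genes. The choice of loci used these contrasts, so nothing is read from the counts. Without the first 1x salt array the count called higher after 1x salt was 66 in place of 4, beside 13.3% of all genes in that fit. With slide as a block, 85 in place of 136 were called higher after 3x salt than after 1x salt, beside 5.06% of all genes. Arrays of a group that lay close together were no-salt arrays 2, 3 and 4, 1x salt arrays 2 and 3, 3x salt arrays 1 and 2, and 3x salt arrays 3 and 4. Averaging them gave 73 in place of 138 against no salt, beside 4.76% of all genes. Against 1x salt it gave 23 in place of 136, beside 0.563% of all genes. That fit had fewer values per group, and calls fell over all genes too. Slides held 1 to 3 arrays. The 3x salt arrays 2 and 3 were each alone on a slide, so the slide block drew no difference from them. On the slides that held both groups, 3x salt array 1 exceeded no-salt array 1 by a median of 1.45, and 3x salt array 4 exceeded no-salt array 4 by a median of 1.49. Differences of 1x salt arrays from the no-salt array of their slide had medians of -0.26, 0.35 and 0.38.

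Among the genes tied to ABA and dehydration, 6 in all, 3x salt minus no salt ran from 1.26 to 4.32 with a median of 1.48. M17, a late embryogenesis abundant gene of the kind made in drying seeds, had the largest difference of the 146 loci. Its log2 values were 9.47, 8.98, 9.27 and 9.07 after 3x salt, 4.99, 5.69 and 4.90 after 1x salt and 4.45, 4.82, 4.82 and 5.41 without salt, a difference of 4.32 between 3x salt and no salt. The 3x salt arrays stood far above the rest, and the 1x salt and no-salt arrays overlapped. In the scanner files its probe was well above background on 4 of 4 arrays after 3x salt, 2 of 3 after 1x salt and 1 of 4 without salt, so the size of the difference rests on signals near background in the lower groups.

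SAG21, a small mitochondrial protein of the late embryogenesis abundant family known to rise with oxidative stress and in senescence, had 15.55, 15.42, 15.79 and 15.90 after 3x salt, 13.17, 14.23 and 14.23 after 1x salt and 13.59, 13.59, 13.66 and 13.81 without salt. 1x salt arrays 2 and 3 were above all no-salt arrays and the first was below them. AFP1, which binds the ABA factor ABI5 and limits its action, averaged 11.09 ± 0.18 after 3x salt, 9.74 ± 0.65 after 1x salt and 9.52 ± 0.31 without salt (SD, n = 4, 3 and 4). EEL, a bZIP factor that competes with ABI5 in the embryo, averaged 9.25 ± 0.14, 8.10 ± 0.62 and 7.85 ± 0.22 in the same groups.

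HB-7, a homeodomain factor induced by ABA and water deficit, behaved more evenly. It had 13.47, 13.45, 13.59 and 13.59 after 3x salt, 12.27, 12.48 and 12.16 after 1x salt and 12.42, 12.18, 12.07 and 12.07 without salt. Every 1x salt array fell within 0.4 of the no-salt mean and among or just above the no-salt arrays. SNRK2.9, a kinase of the SnRK2 family, averaged 8.84 ± 0.17 after 3x salt, 7.60 ± 0.30 after 1x salt and 7.58 ± 0.08 without salt. Of the 24 other genes in a list of ABA-responsive genes, 12 rose and 4 fell after 3x salt against no salt by limma, beside 27.9% and 23.6% of all genes, with a median of 0.34 beside 0.04 over all genes. In that list RAB18, a dehydrin, rose by 2.25 ± 0.13 (SE, limma adjusted p = 3.31e-06). Of 26 genes for ABA receptors, phosphatases, kinases and ABF factors, none among the 146, 10 rose and 4 fell, beside the same shares.

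The 11 transcription factor genes had a median of 1.74 between 3x salt and no salt. bZIP5, a basic leucine zipper factor, had 8.64, 8.68, 8.71 and 8.67 after 3x salt, 4.59, 5.10 and 4.94 after 1x salt and 4.82, 4.78, 4.66 and 4.87 without salt. The 4 arrays after 3x salt were nearly equal and stood alone, while the 1x salt arrays straddled those without salt. Its probe was not well above background on any no-salt array, and in the scanner files 3x salt was at least 19.4-fold higher than no salt. Such a bound sets the mean after 3x salt against the lowest signal that was well above background on each no-salt array.

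NAC060, a NAC factor known from sugar and ABA responses of seedlings, had 8.48, 8.39, 8.36 and 8.73 after 3x salt, 5.47, 5.12 and 5.31 after 1x salt and 5.00, 5.57, 5.42 and 5.62 without salt. Again only the 3x salt arrays stood apart, and its probe was above background on 1 array of each of the other groups. CIL, a relative of the chloroplast import regulator CIA2, had 9.34, 9.11, 8.70 and 8.47 after 3x salt, 6.21, 7.16 and 6.75 after 1x salt and 6.27, 6.60, 6.17 and 6.29 without salt.

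HSFA6A and DREB2C lay near the median of the group. HSFA6A, a heat shock factor, averaged 11.61 ± 0.20 after 3x salt, 10.04 ± 0.17 after 1x salt and 9.87 ± 0.04 without salt (SD). DREB2C, a factor of heat and dehydration responses, had 8.40, 8.45, 9.46 and 9.38 after 3x salt, 5.85, 8.26 and 8.01 after 1x salt and 7.07, 7.16, 7.11 and 7.35 without salt. For DREB2C 1x salt arrays 2 and 3 came close to the first 3x salt arrays, and the first 1x salt array was the lowest of all 11. The remaining factors, RAP2.9, DREB19, IAA32, MYB13 and NAC100, lay 1.47 to 1.66 above no salt after 3x salt, and at DREB19 and IAA32 no scanner probe was matched.

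FRS3, a gene related to the light-signalling factor FAR1, met the rule through 1 value. The deposited table gives it 7.56, 7.44, 17.37 and 7.31 after 3x salt, 7.15, 7.11 and 7.50 after 1x salt and 7.52, 7.33, 7.69 and 7.59 without salt. The other 3 arrays after 3x salt lay among the no-salt arrays. Its 3 probes in the scanner files gave 3x salt minus no salt of -0.35, -0.06 and -0.13, so the scanner files do not show the high value.

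**Figure D3:**
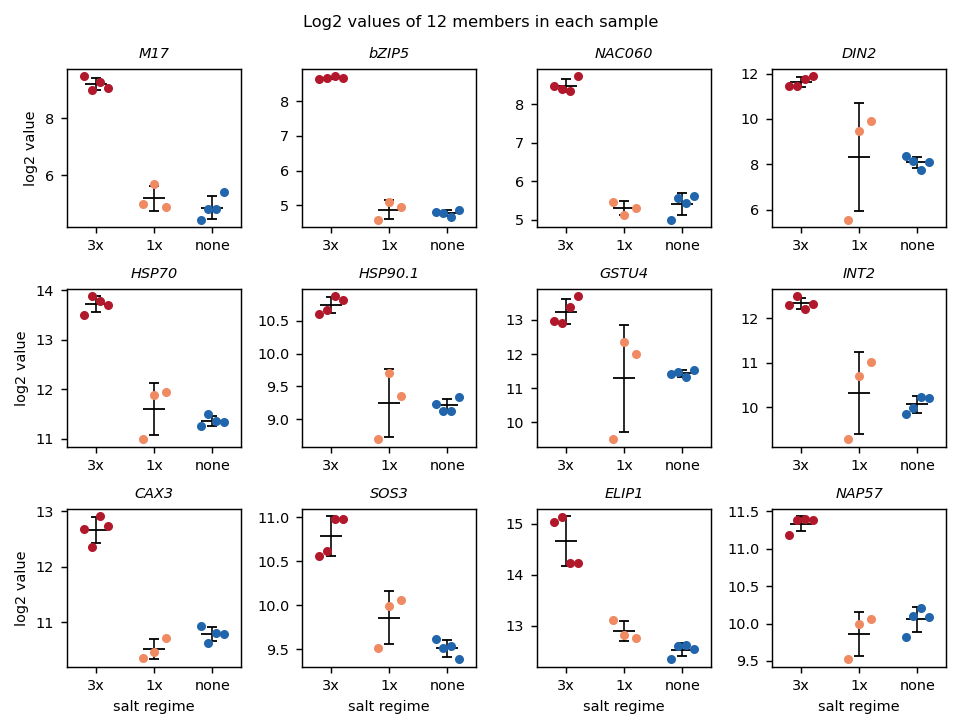
Log2 values of 12 of the loci in every sample, after 3x salt (4), 1x salt (3) and no salt (4), with mean and SD as bars; each panel has its own vertical range, which does not start at 0. The 3x salt points stand above all others in every panel. The first 1x salt array lies below all no-salt arrays in bZIP5, DIN2, HSP70, HSP90.1, GSTU4, INT2, CAX3 and NAP57.

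Chaperones formed a group of 5, with a median of 1.45 between 3x salt and no salt. HSP70, a cytosolic chaperone made on heat and protein damage, had 13.50, 13.88, 13.79 and 13.71 after 3x salt, 10.99, 11.88 and 11.94 after 1x salt and 11.25, 11.50, 11.36 and 11.33 without salt. HSP90.1, the heat-inducible cytosolic HSP90, had 10.61, 10.66, 10.87 and 10.82 after 3x salt, 8.69, 9.70 and 9.36 after 1x salt and 9.24, 9.13, 9.13 and 9.34 without salt. In both genes the first 1x salt array was the lowest of all, and arrays 2 and 3 were above every no-salt array.

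The other chaperones lay closer to the threshold. Hsp70-2 averaged 12.97 ± 0.47 after 3x salt, 11.46 ± 0.43 after 1x salt and 11.52 ± 0.20 without salt. CR88, the chloroplast HSP90, averaged 11.79 ± 0.08, 10.69 ± 0.36 and 10.42 ± 0.18 in those groups, and Fes1A, a partner that stabilises HSP70, 11.20 ± 0.27, 10.23 ± 0.59 and 9.94 ± 0.19. Members of the HSP70 family are close in sequence, and a probe may read more than 1 of them. HSP70 and HSP90.1 are also in a list of heat shock and unfolded protein response genes. Of the 17 other genes tested there, 5 rose and 4 fell after 3x salt against no salt by limma, beside 27.9% and 23.6% of all genes, with a median of 0.11. HSP21, a small chloroplast heat shock protein, stayed just outside the 146 because its 3x salt mean was 7.97, although it lay 3.29 above no salt after 3x salt and 0.30 after 1x salt.

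Detoxification and conjugation genes, 13 in all, had a median of 1.5. At 10 of them the first 1x salt array lay below and the others above the no-salt mean, beside 68.5% of the 146 loci. GSTU4, a tau-class glutathione transferase, had 12.98, 12.93, 13.39 and 13.69 after 3x salt, 9.50, 12.37 and 12.00 after 1x salt and 11.41, 11.48, 11.32 and 11.54 without salt. Its neighbour GSTU2, with 1 gene between them on chromosome 2, had 8.90, 8.85, 9.38 and 9.28 after 3x salt, 5.63, 8.30 and 8.14 after 1x salt and 7.20, 7.46, 7.53 and 7.62 without salt. The pair shared the same split of the 1x salt arrays, and probes of these related genes may cross-read. In the scanner files GSTU2 was well above background on 2 of the 3 arrays after 1x salt.

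CYP81G1, a cytochrome P450, had 9.77, 9.78, 10.44 and 10.53 after 3x salt, 6.75, 9.39 and 9.52 after 1x salt and 8.18, 8.47, 8.28 and 8.33 without salt. Its 1x salt arrays 2 and 3 were within 0.4 of the lowest 3x salt arrays. CYP705A19, also a cytochrome P450, ran differently, with 8.96, 8.59, 8.47 and 8.38 after 3x salt, 6.82, 6.68 and 6.26 after 1x salt and 7.04, 6.86, 6.95 and 6.92 without salt. All 3 of its 1x salt arrays lay below every no-salt array.

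Glucosyltransferases of small molecules made up 4 of the 13. UGT73C1 averaged 8.66 ± 0.22 after 3x salt, 6.62 ± 1.24 after 1x salt and 6.45 ± 0.09 without salt. In the scanner files UGT73C1 was well above background on 2 of the 3 arrays after 1x salt. DOGT1, which glucosylates brassinosteroids and a fungal toxin, averaged 13.49 ± 0.14, 12.21 ± 0.46 and 12.00 ± 0.20, and UGT87A2 14.29 ± 0.23, 12.84 ± 0.98 and 12.78 ± 0.13 in the same order of groups. UGT73B4 lay 1.62 above no salt in the deposited table, and its brighter scanner probe gave 0.74 and its dimmer one 1.74.

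The ABC transporters ABCC4, ABCC9 and ABCC15, of the family that pumps conjugates into the vacuole or out of the cell, lay 1.25 to 1.39 above no salt after 3x salt. MT2A, a metallothionein that binds copper and zinc, had the highest 3x salt mean of the 146 loci. It had 17.08, 17.43, 17.32 and 17.44 after 3x salt, 15.90, 16.51 and 16.40 after 1x salt and 15.97, 15.95, 15.99 and 15.88 without salt. The scanner probes of MT2A gave smaller differences between 3x salt and no salt, 0.58 and 1.11. Besides GSTU4, 24 genes of an antioxidant, glutathione transferase and glutaredoxin list were tested. Of these, 4 rose and 7 fell after 3x salt against no salt by limma, beside 27.9% and 23.6% of all genes, with a median of -0.20.

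Transport genes numbered 10, with a median of 1.56. INT2, which brings inositol into the cell with protons, averaged 12.33 ± 0.12 after 3x salt, 10.32 ± 0.93 after 1x salt, with 9.27 in the first sample, and 10.07 ± 0.19 without salt (SD). CAX3, a vacuolar exchanger of calcium for protons, had 12.68, 12.35, 12.91 and 12.74 after 3x salt, 10.36, 10.47 and 10.71 after 1x salt and 10.92, 10.63, 10.80 and 10.78 without salt. INT2 had a low first 1x salt array and higher others, whereas the 1x salt arrays of CAX3 lay together, within or below the no-salt range.

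SOS3, the calcium sensor that activates the SOS2 kinase and through it the SOS1 sodium exporter, had 10.56, 10.61, 10.98 and 10.97 after 3x salt, 9.51, 9.99 and 10.06 after 1x salt and 9.61, 9.51, 9.53 and 9.38 without salt. The 3x salt arrays were above all others, and 2 of the 3 arrays after 1x salt were above all no-salt arrays. Of the 26 other genes in a list of sodium, chloride and nitrate transport genes, 3 rose and 10 fell after 3x salt against no salt by limma, beside 27.9% and 23.6% of all genes, with a median of -0.21.

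NRT1.7, which loads nitrate into the phloem of old leaves, averaged 15.10 ± 0.29 after 3x salt, 13.73 ± 0.60 after 1x salt and 13.64 ± 0.05 without salt. The gene NPF3.1 (AT1G68570), a relative of NRT1.7, averaged 14.74 ± 0.08, 13.46 ± 0.10 and 13.43 ± 0.16, with every 1x salt array within 0.4 of the no-salt mean. PHT3;2, a mitochondrial phosphate carrier, averaged 8.90 ± 0.27, 6.87 ± 0.98 and 7.01 ± 0.22. GLR1.3, a glutamate receptor-like channel, had 8.60, 8.66, 8.84 and 8.90 after 3x salt, 6.13, 6.95 and 6.88 after 1x salt and 7.11, 6.82, 6.57 and 6.72 without salt. In the scanner files PHT3;2 and GLR1.3 were each well above background on 2 of the 3 arrays after 1x salt. The remaining transport genes, UMAMIT6, ALIS5 and PHO1;H3 (AT1G14040), lay 1.23 to 1.67 above no salt after 3x salt.

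Carbohydrate and cell wall genes had the largest median of the 8 groups, 2.04 over 8 genes. At all 8 the first 1x salt array was below and the others above the no-salt mean, beside 68.5% of the 146 loci. DIN2, a beta-glucosidase induced in the dark and by sugar shortage, had 11.45, 11.45, 11.75 and 11.87 after 3x salt, 5.57, 9.46 and 9.93 after 1x salt and 8.36, 8.13, 7.74 and 8.11 without salt. The 1x salt mean of DIN2, 8.32, lay near its no-salt mean of 8.08. No single 1x salt array was within 1 of that no-salt mean, and the SD of the 1x salt arrays was 2.40. In the scanner files DIN2 had a probe well above background on 2 of the 3 arrays after 1x salt. Besides DIN2, 15 low-energy and starvation genes were tested by limma. After 3x salt 1 rose and 4 fell against no salt, beside 27.9% and 23.6% of all genes, and 1 rose and 10 fell against 1x salt, beside 19.8% and 19%. After 1x salt 5 rose and none fell against no salt, beside 9.24% and 7.7% of all genes.

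MAN1, an endo-mannanase that cuts wall mannans, had 9.66, 9.55, 10.37 and 10.39 after 3x salt, 6.28, 7.60 and 7.67 after 1x salt and 7.30, 7.12, 7.27 and 7.28 without salt. CHIA, an acidic chitinase, had 10.55, 10.60, 10.71 and 10.68 after 3x salt, 8.13, 8.78 and 8.86 after 1x salt and 8.41, 8.15, 8.30 and 8.15 without salt. BGLU11, a beta-glucosidase, had 13.22, 13.22, 13.17 and 13.12 after 3x salt, 10.04, 11.92 and 11.59 after 1x salt and 11.26, 11.06, 11.03 and 10.95 without salt. In these genes too the 3x salt arrays did not overlap any other array, and the first 1x salt array was below all no-salt arrays.

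The invertase A/N-InvB, which splits sucrose inside the cell, showed the smallest difference of the group, with 10.19 to 10.49 after 3x salt, 8.71 to 9.12 after 1x salt and 8.92 to 9.05 without salt. PELPK1, a cell wall protein gene, varied most among its no-salt arrays, and averaged 9.95 ± 0.67 after 3x salt, 8.07 ± 1.04 after 1x salt and 8.06 ± 0.65 without salt.

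**Figure D4:**
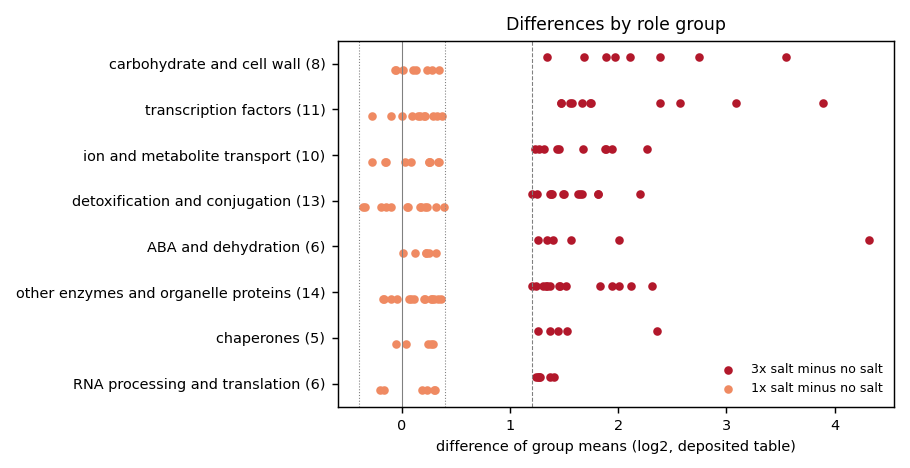
Differences of group means in log2 from the deposited table for the loci of 8 role groups (number of loci in brackets), red for 3x salt minus no salt and orange for 1x salt minus no salt. The dashed line marks the 1.2 threshold and dotted lines -0.4 and 0.4, so the separation of red and orange follows from the rule; carbohydrate and cell wall genes have the largest median (2.04) and RNA processing and translation genes the smallest (1.27).

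RNA processing and translation genes, 6 in all, lay between 1.24 and 1.41 above no salt after 3x salt. NAP57, the pseudouridine synthase of ribosomal RNA maturation, had 11.18, 11.38, 11.40 and 11.38 after 3x salt, 9.52, 10.00 and 10.06 after 1x salt and 9.82, 10.10, 10.21 and 10.09 without salt. NMD3, an export adaptor of the large ribosomal subunit, had 13.27, 13.35, 13.33 and 13.31 after 3x salt, 12.10, 12.43 and 12.53 after 1x salt and 12.01, 12.00, 12.09 and 12.10 without salt. NAP57 was within or below the no-salt values on its 1x salt arrays, and NMD3 was at or above them. PRH75, a nuclear RNA helicase, averaged 14.45 ± 0.19 after 3x salt, 13.33 ± 0.27 after 1x salt and 13.04 ± 0.09 without salt, and ERF1-1, a translation release factor, 14.13 ± 0.15, 12.95 ± 0.12 and 12.76 ± 0.15. EMB1687 and the RNase P protein PRORP2 were the other members.

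Other enzymes and organelle proteins numbered 14, with a median of 1.46. ELIP1, an early light-induced protein of thylakoids under excess light, had 15.04, 15.13, 14.24 and 14.24 after 3x salt, 13.12, 12.83 and 12.76 after 1x salt and 12.34, 12.62, 12.63 and 12.56 without salt. 3x salt arrays 1 and 2 of ELIP1 were above arrays 3 and 4, and all 3 of its 1x salt arrays were above all no-salt arrays. Of the 29 other genes in a list of light-harvesting and photosystem subunit genes, 1 rose and 28 fell after 3x salt against no salt by limma, beside 27.9% and 23.6% of all genes, with a median of -0.87.

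SAG13, a senescence-associated short-chain dehydrogenase, had 12.32, 12.56, 12.98 and 13.14 after 3x salt, 9.38, 11.29 and 11.07 after 1x salt and 11.11, 10.81, 10.55 and 10.51 without salt. Besides SAG13 and SAG21, 18 senescence and chlorophyll breakdown genes were tested by limma. After 3x salt 3 rose and 5 fell against no salt, beside 27.9% and 23.6% of all genes, and 7 rose and 2 fell against 1x salt, beside 19.8% and 19%. SCPL7, a serine carboxypeptidase-like protein, averaged 10.24 ± 0.17 after 3x salt, 8.14 ± 0.78 after 1x salt and 7.93 ± 0.10 without salt.

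NADP-ME1, a malic enzyme that turns malate into pyruvate, had 10.96, 10.87, 10.78 and 10.86 after 3x salt, 9.06, 8.93 and 8.25 after 1x salt and 9.38, 9.02, 8.28 and 9.03 without salt. Its 1x salt arrays lay within or just below the no-salt range, with sample 3 low in both groups. The aldehyde oxidase AO1 averaged 11.80 ± 0.13 after 3x salt, 10.18 ± 0.30 after 1x salt and 10.28 ± 0.29 without salt, and COX17, a copper chaperone of mitochondrial cytochrome oxidase, 10.39 ± 0.08, 8.89 ± 0.57 and 8.56 ± 0.12. The other 8 genes of the group lay between 1.21 and 1.46 above no salt.

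Among loci with no role assigned, the largest differences were at AT1G07985 (2.52), AT3G15357 (2.38) and AT4G20320 (2.37). By scanner signal, AT1G07985 was well above background on 2 of the 3 arrays after 1x salt and 2 of the 4 without salt. Its scanner difference between 1x salt and no salt was 0.84, outside the 0.4 limit. AT3G15357 was well above background on 2 of the 3 arrays after 1x salt. AT4G20320 had 11.75, 11.65, 11.66 and 11.70 after 3x salt, 9.07, 9.45 and 9.28 after 1x salt and 9.21, 9.35, 9.27 and 9.43 without salt, with the 1x salt arrays among those without salt. AT1G60730 and AT1G60740, neighbours on chromosome 1 with no gene between them, lay 2.11 and 2.19 above no salt after 3x salt, and AT4G30830 and AT4G30840, neighbours on chromosome 4, 1.42 and 1.21. The 4 arrays of AT4G30830 after 3x salt (10.59 to 11.16) were above 9.36 to 9.40 after 1x salt and 9.36 to 9.51 without salt. Next to MT2A, the highest 3x salt means were at AT3G49910 (16.62), AT3G09200 (16.11), AT1G54575 (15.72) and SAG21 (15.66). The 4 scanner probes of AT3G49910 gave 0.96 to 1.15 between 3x salt and no salt, below the 1.2 threshold. In all, 8 pairs of the loci lay within 4 intervening genes of each other.

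Besides FRS3, 3 loci had 3x salt arrays that overlapped the other groups, AT5G37175, AT2G37000 and AT5G07850. AT5G07850 had 9.73, 9.66, 8.20 and 9.80 after 3x salt, 8.55, 9.48 and 7.52 after 1x salt and 9.09, 8.19, 6.92 and 8.27 without salt. At each of these loci sample 3 of every group was the lowest of its group, as it was at AT5G37175 with 7.78, 6.75 and 6.26 after 3x salt, 1x salt and no salt. The differences at these 3 loci were of the size of the spread between samples, but the low sample 3 was common to all groups. That spread is therefore not a measure of how far same-numbered samples differed between groups.

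The 3x salt arrays fell in pairs, arrays 1 and 2 and arrays 3 and 4. Over all genes tested, the SD of the log2 difference was 0.33 within each pair and 0.51 to 0.56 between arrays of different pairs. Arrays 3 and 4 were both above arrays 1 and 2 at 71 of the 146 loci (48.6%, beside 29.2% of all loci), and the reverse held at 31 (21.2%, beside 28.6%). UGT73B4 (7.71, 7.69, 8.82 and 8.82) was of the first kind and ELIP1 of the second.

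The deposited table and the scanner files gave close values at most of the 140 loci with a probe. In the scanner files 127 were at least 1.2 higher after 3x salt and 121 within 0.4 after 1x salt, and 109 met both. Of 45 loci with several probes, all probes were higher after 3x salt than without salt at 44, and by at least 1.2 at 23. For the dim genes M17 and bZIP5 the scanner differences between 3x salt and no salt were larger, 5.93 and 5.84. Their scanner differences between 1x salt and no salt were 1.32 and 1.12, outside the 0.4 limit, from signals that were mostly not well above background.

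**Figure D5:**
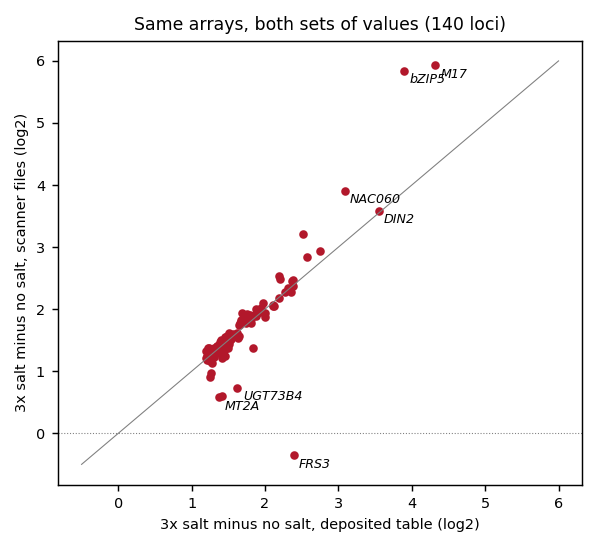
Each of 140 loci with its 3x salt minus no salt difference in the deposited table (horizontal) and from the scanner files (vertical), both log2, with the line of equality. Most points follow the line; M17, bZIP5 and NAC060 lie above it, MT2A and UGT73B4 below, and FRS3 falls below 0.

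Near the thresholds the choice was narrow. Just inside 1.2 were AT3G18250, AT1G64561, CYP705A12 and DHDPS2 (up to 1.21), and just outside it RPSAb, AT2G26355, AT4G15610 and AT3G46690, all of which round to 1.2. For 1x salt minus no salt, AT1G35320, AT4G33540, AT5G07850 and ABCC9 were just inside (0.39 to 0.40), and AT2G23910 (-0.40), AT2G17280 (0.40), GSTU11 (-0.40) and BOR5 (0.41) just outside. For the level threshold AT1G64561 (8.03) was just inside, and VIN3 (7.98) and HSP21 (7.97) just outside.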

How the data were processed

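One-colour array scanner files and a deposited table of normalised log2 values per gene were used. Per the file headers, Feature Extraction 11.5.1.1 made the deposited intensity values. How the authors scaled their log2 table is not given in the sources used here. Its columns were matched to arrays by name, and each correlated best with its own array's scanner values. The table chose the 146 loci and gives the values printed per array. For tests, the 75th percentile of each array was subtracted from the log2 of its processed intensity, with the brightest probe per locus. Of these genes, 23442 were well above background on at least 3 arrays and entered limma 3.58.1 (lmFit and eBayes, all 11 arrays, Benjamini-Hochberg adjusted p of 0.05) in R 4.3.3. The method was also run on simulated arrays. Their spread was independent between arrays, unlike the close arrays within groups seen here, so that run says nothing about such closeness. The signal behind normexp was the median spot signal, because no mean signal column was present. Slide numbers were read from the array barcodes. The number of arrays limits the precision. Named loci were the 20 with the largest 3x salt differences, the 5 highest after 3x salt, those in gene lists, near thresholds, most spread after 1x salt or adjacent, and up to 4 per role group, with some further loci from the role groups, or overlapping between groups, added after their values were seen. Role groups were made by hand from symbols and synonyms. The members, lists and groups were chosen with earlier results of these data known. Promoter sequences were not analysed here.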

Additional observations from a re-analysis of the deposited data

Results flagged for a closer look

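Among 114 groups of 4 samples looked at over the named loci, 7 had a highest or lowest sample whose gap to its nearest neighbour, divided by the group's range, passed Dixon's critical value for groups of that size. Chance marks about 1 group in 20. After 3x salt these were the third sample of FRS3 at 17.37, the third sample of AT5G07850 at 8.20, the first sample of NAP57 at 11.18 and the second sample of PRH75 at 14.17. Without salt they were the second sample of MAN1 at 7.12, the first sample of AT1G60730 at 11.34 and the second sample of AT5G65040 at 10.11. All are log2 values of the deposited table. The sample of FRS3 lay 10.06 above the lowest of its group, the widest range of the 7, and the range of MAN1 was 0.17.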

How the results depend on the processing

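The 146 loci became 327 with a 3x salt threshold of 1.0, 59 with 1.5, and 30 when every 1x salt array had to lie within 0.4. Without the first 1x salt array the rule gave 84 loci, 75 of them among the 146, and leaving out each array in turn gave 84 to 185. Scanner values with the level threshold set aside gave 203 loci, 109 of them shared, and averaging close arrays first, an alternative chosen after seeing the data, gave 181. Genes called after 3x salt against no salt numbered 12067, with 7974 under a slide block, 2221 with close arrays averaged and 10443 to 12768 when each array was left out. Against 1x salt the 9101 calls became 2796 with a slide block, 512 with close arrays averaged and 7450 to 9132. After 1x salt against no salt the 3969 calls became 2622 in the deposited table, 1044 with a slide block, 2 with close arrays averaged and 2281 to 5580. Against no salt 138 members were called higher after 3x salt, 73 with close arrays averaged and 135 to 138 with each array left out. Of all genes 27.9% were called higher, and 4.76% with close arrays averaged. Against 1x salt 136 members were called higher, 85 with a slide block, 23 with close arrays averaged and 126 to 136 with each array left out. The shares of all genes were 19.8%, 5.06% with the slide block and 0.563% with close arrays averaged. Of 969 alternative differences of the 57 named loci between 3x salt and no salt, 871 moved by less than the replicate SD, 88 by more, and 10 changed sign, all of FRS3. FRS3 gave -0.35 from scanner values, with no or a stricter background filter and with the replicate block, -0.33 with normexp, -0.11 with all probes averaged, -0.30 with median scaling, -0.43 with a slide block, -0.40 with close arrays averaged and -0.10 to 3.26 when each array was left out, the lowest without the 3x salt array of sample 3. The labels give no shared source for same-numbered samples, and 5 of 10 same-numbered pairs correlated over 0.1 (-0.12 to 0.30), so the numbers were not taken as pairs. As a hint from the data alone, 8 of 11 arrays correlated best with an array of their own number. Same-numbered arrays shared a slide, apart from 3x salt arrays 2 and 3, so number and slide largely cannot be told apart. The replicate block gave 12614, 9084 and 3274 calls in the 3 comparisons. It gave 139 and 133 members higher after 3x salt, beside 29.0% and 19.7% of all genes. The cause of these changes was not tested, and values of loci dim without salt are limited by background.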
